A study of Mus musculus with 8 samples.

Results

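A set of 10 genes that mark fibro-adipogenic progenitors and fibroblasts was followed in cultured mouse satellite cells: the receptor genes Pdgfra and Pdgfrb, the surface protein genes Ly6a, Thy1, Cd248 and Dpp4, the genes of secreted or matrix proteins Pi16 and Dpt, and the transcription factor genes Osr1 and Tcf4. They were chosen by name, 10 of the 31732 genes on the array, and are read by 11 of 39429 probes on 29 of 43020 spots. The cultures came from the extensor digitorum longus, a hindlimb muscle, of male mice aged 8 weeks. They were mice labelled Dnmt3a-KO, a knockout of the DNA methyltransferase gene Dnmt3a, and WT littermates. The labels do not say how or in which cells Dnmt3a was deleted. Cells of both genotypes were grown for 5 days, replated at matched cell number and kept in differentiation medium for 2, 4, 5 or 6 days. One Agilent array was run per genotype and day, 4 Dnmt3a-KO and 4 WT arrays in all. Nothing in the labels says whether the days come from separate animals, so every p-value below measures only the spread between these arrays.

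Fibro-adipogenic progenitors are connective tissue cells that lie between muscle fibres. They do not form muscle themselves, but after injury they expand, support satellite cells through secreted factors and can become matrix-producing fibroblasts or fat cells. PDGFRA, the receptor of platelet-derived growth factor chains that drives their expansion, and SCA1, the product of Ly6a, are the surface proteins by which they are sorted from mouse muscle, whereas satellite cells are the stem cells that form new fibres and are sorted for lacking SCA1. In RNA from a whole dish, fewer cells of a type and less RNA per cell cannot be told apart.

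Dnmt3a adds methyl groups to the C of CG dinucleotides, so the CG content of the members' promoters is shown first. RefSeq promoters of the assembly GRCm38.p6, 300 bases running from 250 before to 50 after the gene start, were matched for 4 of 10 members. They comprise Pdgfra and Pi16, whose transcripts were measured, and Dpp4 and Dpt, whose probes were well above background on 0 of 8 arrays. Each is written 5′ to 3′ on the strand of its gene, and the capitals mark every CG.
Pdgfra: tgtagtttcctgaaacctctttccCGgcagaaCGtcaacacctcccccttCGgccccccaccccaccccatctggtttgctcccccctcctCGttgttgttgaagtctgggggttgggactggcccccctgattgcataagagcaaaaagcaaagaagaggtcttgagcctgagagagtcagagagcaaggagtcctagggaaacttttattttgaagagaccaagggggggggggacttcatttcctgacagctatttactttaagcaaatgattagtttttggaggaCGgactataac
Pi16: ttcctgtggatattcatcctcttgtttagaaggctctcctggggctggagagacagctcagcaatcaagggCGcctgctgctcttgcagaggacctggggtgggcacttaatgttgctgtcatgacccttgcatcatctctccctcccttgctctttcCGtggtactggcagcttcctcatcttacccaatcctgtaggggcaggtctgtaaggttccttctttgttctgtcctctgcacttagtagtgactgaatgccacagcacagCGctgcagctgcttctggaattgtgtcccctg
Dpp4: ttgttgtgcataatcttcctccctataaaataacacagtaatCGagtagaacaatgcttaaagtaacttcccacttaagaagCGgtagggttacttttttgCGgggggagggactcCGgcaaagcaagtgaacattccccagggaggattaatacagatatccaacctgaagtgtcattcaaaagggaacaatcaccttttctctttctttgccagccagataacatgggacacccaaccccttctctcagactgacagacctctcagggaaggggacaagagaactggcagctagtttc
Dpt: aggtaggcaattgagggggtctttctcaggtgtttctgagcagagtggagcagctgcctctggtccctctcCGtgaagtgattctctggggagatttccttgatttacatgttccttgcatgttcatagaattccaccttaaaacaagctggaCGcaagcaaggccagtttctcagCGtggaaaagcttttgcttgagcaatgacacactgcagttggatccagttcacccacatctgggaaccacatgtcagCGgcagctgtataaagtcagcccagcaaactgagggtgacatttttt
The windows are chr5:75152001-75152300 for Pdgfra, chr17:29318632-29318931 for Pi16, chr2:62412182-62412481 on the minus strand for Dpp4 and chr1:164796413-164796712 for Dpt.

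The Pdgfra promoter window held 5 CG, that of Pi16 held 3, and those of Dpp4 and Dpt held 4 each. Over 32851 promoters of the same length the median was 7 CG, with quartiles of 3 and 20, so that 62.0% of promoters held at least as many as Pdgfra and 76.7% at least as many as Pi16. All 4 windows thus lay at or above the lower quartile and below the median. The E-box, CANNTG, which MyoD and E proteins such as the product of Tcf4 bind as dimers, had 2 matches in the Pdgfra window, 1 in that of Pi16, 1 in that of Dpp4 and 7 in that of Dpt. It reads the same on both strands and was present in 72.3% of all promoters. No methylation was measured here, and a match in these letters is a description, not a bound site.

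The arrays differed by day before any marker is read. Both day 2 arrays shared 1 slide and a newer scanner, days 4 and 5 shared another slide, and day 6 had its own. The array's 75th percentile of signal ran from 719.5 to 1528.1 intensity units, and 61.6% to 67.4% of spots were well above background. The Dnmt3a signal of Dnmt3a-KO cells was 46.2%, 19.8%, 21.7% and 19.1% of that of WT cells on days 2, 4, 5 and 6, and whether its probe lies in the deleted stretch is not known. Of the transcripts that report sex, the Y-linked Uty, Kdm5d, Eif2s3y and Ddx3y exceeded background clearly on 2 of 2 day 2 arrays and on 0 of 6 later ones, and Xist on 0 of 2 and 6 of 6, although the labels call every sample male. The libraries labelled day 2 therefore stand apart from the rest in slide, scanner and sex-linked transcripts, and the mean differences and slopes of the members are also given without it. As for the labelled cell type, the satellite cell and muscle genes Pax7, Myod1, Myog and Des were well above background on 8 of 8 arrays and Myf5 on none.

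Signals are given as percent of the array's 75th percentile, which sets the arrays on 1 scale but does not make different probes comparable, and differences as log2 of Dnmt3a-KO over WT on the same day. Of the 10 members, 8 passed the filter for a test, a signal well above background on 4 or more of the 8 arrays. The test across genotypes was limma's moderated test over 19655 genes with day as a block and Benjamini-Hochberg adjustment, at an adjusted p under 0.05. It called 0 of the 8 members, against 0.0102% of all genes (2 genes). At an unadjusted p under 0.05 it held 1 member, Pi16, and 2531 genes. Further tests asked for a slope over days and for a slope that differs between genotypes. A single day has 1 array per genotype and no test, so its values are descriptions.

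**Figure D1:**
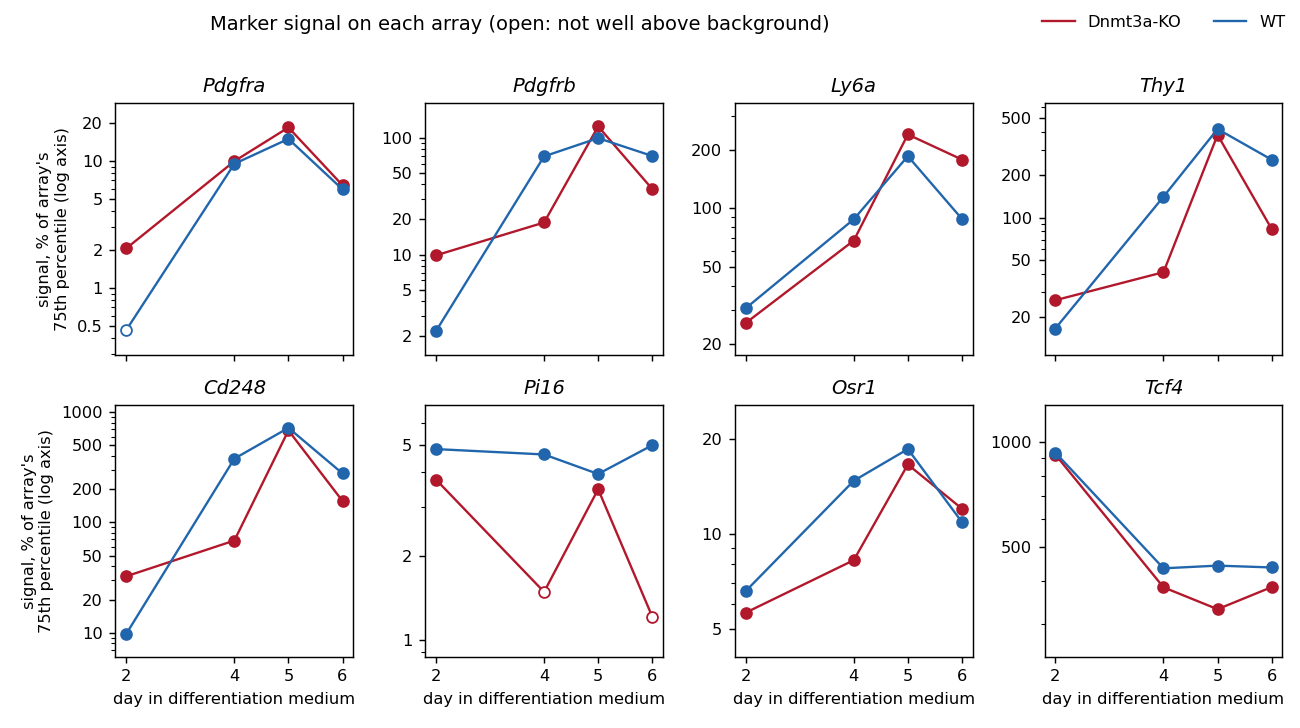
Signal of the 8 tested markers on each array, as percent of the array's 75th percentile on a log axis, against the day in differentiation medium, with 1 point per array (Dnmt3a-KO red, WT blue, open where not well above background). Pdgfra, Pdgfrb, Ly6a, Thy1, Cd248 and Osr1 peak on day 5 in both genotypes, and Dnmt3a-KO lies below WT on days 4 and 6 for Pdgfrb, Thy1, Cd248 and Pi16.

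Among the receptors, Pdgfra, the defining receptor of fibro-adipogenic progenitors, differed between genotypes by at most 0.31 log2 units after day 2. Its probe (mm9, chr5:75593888-75593947) stands on 10 spots of the array. It read 2.04, 9.93, 18.3 and 6.41% in Dnmt3a-KO cells on days 2, 4, 5 and 6. In WT cells it read 0.465% on day 2, where it was not well above background, and 9.46, 14.9 and 5.96% on days 4, 5 and 6. Day 2 thus gives only a bound, at least 2.09-fold higher in Dnmt3a-KO, and days 4, 5 and 6 gave log2 differences of 0.07, 0.31 and 0.10. The 8 to 10 spots used per array had an SD of 0.078 to 0.31 log2 units on the 7 arrays where they were well above background, which is a technical spread within 1 array. The mean difference over the 4 days was 0.48 ± 0.63 (SD over days, adjusted p = 0.48 by limma), to which day 2, not well above background in WT, added most, and without day 2 it was 0.16.

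Pdgfrb, the sister receptor, found on pericytes and fibroblasts as well as on these progenitors, changed sides between days. Its probe (mm9, chr18:61244606-61244665) read 9.84, 18.8, 125 and 36.5% in Dnmt3a-KO cells, against 2.20, 69.4, 99.5 and 69.9% in WT cells. Dnmt3a-KO was 4.46-fold higher on day 2, 3.69-fold lower on day 4, 1.26-fold higher on day 5 and 1.92-fold lower on day 6. The ranges of the genotypes overlapped widely, and the mean difference was -0.08 ± 1.75 (SD over days, adjusted p = 0.97 by limma). It was -0.83 without day 2 and 0.52 without day 4.

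Cd248, which encodes endosialin, a surface glycoprotein of stromal cells and pericytes, was above WT on day 2 and below it on the later days. Its probe (mm9, chr19:5070558-5070617) read 32.5, 68.5, 681 and 156% in Dnmt3a-KO cells and 9.76, 378, 719 and 278% in WT cells. The array of Dnmt3a-KO cells was 3.33-fold higher on day 2, 5.52-fold lower on day 4, and lower by 1.06-fold on day 5 and 1.78-fold on day 6. Its mean difference of -0.41 ± 1.74 was smaller than its spread over days (adjusted p = 0.81 by limma), and it was -1.12 without day 2 and 0.28 without day 4.

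Thy1, the gene of CD90, a surface glycoprotein of fibroblasts, some progenitors and nerve cells, was also above WT on day 2 and below it on the later days. The probe (mm9, chr9:43856591-43856650) read 26.3, 41.4, 382 and 83.3% in Dnmt3a-KO cells and 16.6, 140, 420 and 256% in WT cells. Dnmt3a-KO was 1.58-fold higher on day 2, then lower by 3.40-fold on day 4 and 3.07-fold on day 6, with a log2 difference of -0.14 on day 5. The mean difference was -0.71 ± 1.18 (SD over days, adjusted p = 0.55 by limma). It was -1.17 without day 2, -0.36 without day 4 and -0.41 without day 6.

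Ly6a went another way. This gene of SCA1, a surface protein of progenitors and endothelial cells that interferon also induces, read 25.7, 68.3, 240 and 178% in Dnmt3a-KO cells and 30.6, 87.9, 185 and 88.2% in WT cells (mm9, chr15:74825553-74825612, minus strand). Dnmt3a-KO was lower by 1.19-fold and 1.29-fold on days 2 and 4 and higher by 1.29-fold and 2.02-fold on days 5 and 6. On day 6 it was the 1 member at 2-fold or more above WT, while Pi16 and Thy1 were below by that much. Its mean difference was 0.19 ± 0.64 (SD over days, adjusted p = 0.77 by limma), 0.34 without day 2 and -0.082 without day 6.

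Dpp4, the gene of CD26, a peptidase that marks a reservoir of fibroblast progenitors in connective tissue, was not detected. Its probe (mm9, chr2:62170062-62170121, minus strand) read 0.446 to 0.799% in Dnmt3a-KO cells and 0.203 to 1.22% in WT cells and was not well above background on any array, so no fold is given.

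Pi16, the gene of a secreted peptidase inhibitor that also marks fibroblast progenitors, was the 1 member whose genotypes did not overlap. Its probe (mm9, chr17:29465784-29465843) read 3.77, 1.49, 3.48 and 1.21% in Dnmt3a-KO cells and 4.85, 4.64, 3.94 and 5.01% in WT cells. Every Dnmt3a-KO array lay below every WT array, as it did for 0.773% of tested genes, while 0 members lay wholly above. Detection well above background held on 2 of the 4 arrays of Dnmt3a-KO cells (days 2 and 5) and on 4 of 4 WT arrays, so it would have passed the filter on its WT arrays alone. The Dnmt3a-KO arrays of days 4 and 6 give bounds, lower by at least 3.12-fold and by at least 4.13-fold, and on days 2 and 5 Dnmt3a-KO was lower by 1.29-fold and 1.13-fold. The mean difference was -1.06 ± 0.92 log2 units (SD over days, unadjusted p = 0.030, adjusted p = 0.35 by limma), which did not pass. It was -1.29 without day 2, -0.86 without day 4, -1.35 without day 5 and -0.73 without day 6.

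Dpt, the gene of the matrix protein dermatopontin and a broad fibroblast marker, was not detected on its 10 spots. None of them was well above background on any array, and the probe (mm9, chr1:166753703-166753762) reached at most 1.15% in Dnmt3a-KO cells, on day 5, and 0.236% in WT cells, on day 2.

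Of the transcription factors, Osr1, which marks embryonic connective tissue precursors and progenitors of injured adult muscle, read 5.62, 8.25, 16.6 and 12.0% in Dnmt3a-KO cells and 6.58, 14.7, 18.6 and 10.9% in WT cells (mm9, chr12:9587390-9587449). Its largest difference was on day 4, 1.79-fold lower in Dnmt3a-KO, and the mean difference was -0.27 ± 0.41 (SD over days, adjusted p = 0.54 by limma), -0.29 without day 2 and -0.083 without day 4. Tcf4 had the flattest differences of the 8. The probe used for the test (mm9, chr18:69842843-69842902) read 919, 383, 331 and 383% in Dnmt3a-KO cells and 932, 434, 442 and 436% in WT cells. Dnmt3a-KO was lower on each of the 4 days, by 1.01-fold to 1.33-fold, with a mean difference of -0.20 ± 0.16 (SD over days, adjusted p = 0.42 by limma), -0.26 without day 2 and -0.13 without day 5. The other Tcf4 probe (mm9, chr18:69847562-69847621), which read 25.9, 13.1, 8.61 and 12.3% in Dnmt3a-KO cells and 24.3, 12.2, 11.9 and 12.6% in WT cells, gave a mean difference of -0.07 ± 0.27.

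The gene name needs care here. Tcf4 encodes an E protein, a partner of the myogenic factors, whereas the TCF4 protein by which connective tissue fibroblasts of muscle are recognised is the product of Tcf7l2, a transcription factor of Wnt signalling that RefSeq also lists under the name Tcf4. Tcf7l2 was well above background on 8 of 8 arrays with its brightest probe. It read 42.8, 9.16, 11.2 and 10.02% in Dnmt3a-KO cells and 43.4, 13.4, 13.02 and 13.5% in WT cells, and its mean difference was -0.30 ± 0.23 (adjusted p = 0.36 by limma). Its second probe differed by -0.04 ± 0.03 and the one left was well above background on 2 of 8 arrays, both of day 2.

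**Figure D2:**
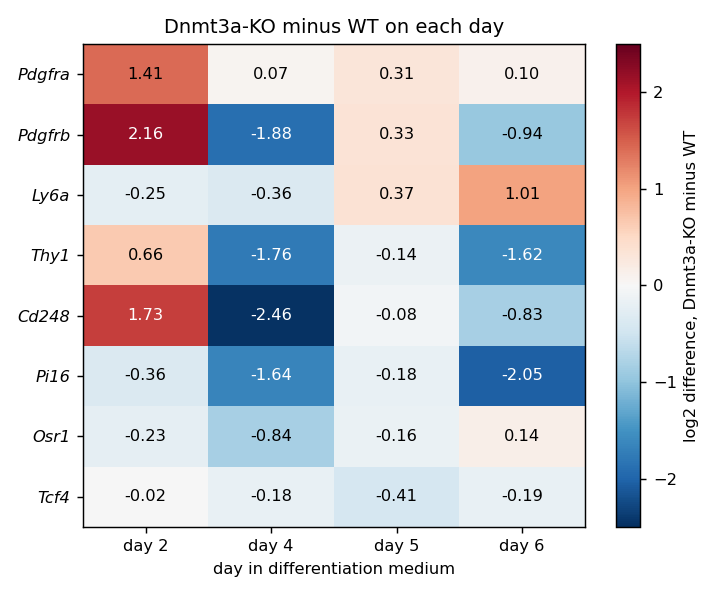
Log2 difference of Dnmt3a-KO minus WT for the 8 tested markers (rows) on each day (columns), 1 array per genotype and day, red where Dnmt3a-KO was higher and blue where lower. Day 2 is red for Pdgfra, Pdgfrb, Cd248 and Thy1, day 4 is blue for all but Pdgfra, and day 5 values lie between -0.41 and 0.37.

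Read across members, Pdgfrb, Cd248 and Thy1 changed side between days 2 and 4, whereas Pdgfra was above WT and Pi16 and Tcf4 below WT on each of the 4 days. For Tcf4 this holds for the probe used for the test, as its other probe was above WT on days 2 and 4 (0.10 and 0.11). On day 2, Pdgfra, Pdgfrb and Cd248 were at least 2-fold higher in Dnmt3a-KO, 3 of 8 members against 1.89% of all tested genes, and 0 were 2-fold lower, against 1.14%. On day 4, 0 were higher, against 1.46%, and 4 were lower (Pdgfrb, Thy1, Cd248 and Pi16), against 3.07%. On day 5, 0 were higher or lower, against 0.916% higher and 1.82% lower. On day 6, 1 was higher (Ly6a), against 1.3%, and 2 were lower (Pi16 and Thy1), against 1.88%.

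The median difference of the 8 members on days 2, 4, 5 and 6 was 0.32, -1.24, -0.11 and -0.51, where that of all genes was 0.0073, -0.02, -0.05 and 0.02. The 3 members Pdgfrb, Thy1 and Cd248 were above WT on day 2 and below it on days 4 and 6, a pattern picked after the values were seen and shared by 14.8% of tested genes. Days 4 and 5, with medians of -1.24 and -0.11, lay on 1 slide. Whether the slope over days differed between genotypes was tested with limma, and 0 members and 0% of all genes passed, all with an adjusted p of 1.0. At an unadjusted p under 0.05 that test held 2 members, Ly6a (a slope steeper by 0.31 log2 units per day in Dnmt3a-KO) and Pdgfra (by -0.32), and 820 of 19655 genes. The Pdgfra value includes WT cells on day 2, where it was not well above background. Without day 2 its difference in slope was 0.015, and that of Ly6a was 0.69.

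Most members had a course over days that both genotypes shared. The 6 members Pdgfra, Pdgfrb, Ly6a, Thy1, Cd248 and Osr1 were brightest on day 5 in both genotypes, as were 9.53% of tested genes. From day 4 to day 5, within 1 slide, Cd248 was 9.95-fold higher in Dnmt3a-KO cells and 1.90-fold in WT cells. The ratio for Thy1 was 9.24 in Dnmt3a-KO cells and 2.99 in WT cells, and that for Pdgfrb was 6.66 in Dnmt3a-KO cells and 1.43 in WT cells. Ly6a had a ratio of 3.51 in Dnmt3a-KO cells and 2.11 in WT cells. At least 2-fold from day 4 to day 5 were 6 members in Dnmt3a-KO cells, against 3.61% of tested genes, and 2 in WT cells, against 1.11%. These rules were set after the values were seen, each ratio rests on 2 arrays, and with 1 array per genotype and day their difference between genotypes was not tested.

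**Figure D3:**
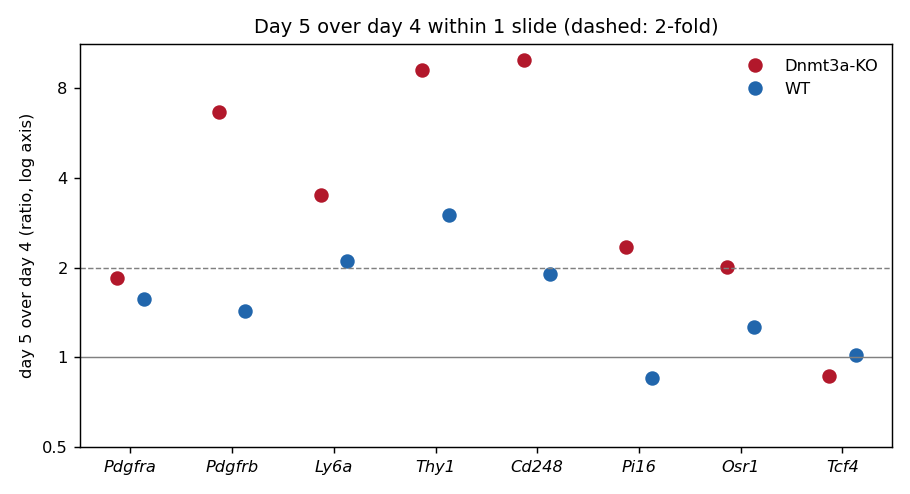
Ratio of the day 5 to the day 4 signal for the 8 tested markers on a log axis, 1 ratio of 2 arrays per genotype (Dnmt3a-KO red, WT blue, dashed line at 2-fold), with the Pi16 ratio of Dnmt3a-KO cells a bound because day 4 was not well above background. Cd248, Thy1 and Pdgfrb reach 9.95, 9.24 and 6.66 in Dnmt3a-KO cells and 1.90, 2.99 and 1.43 in WT cells.

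A straight line over days, fitted with limma on all 8 arrays with genotype as a covariate, rose for 5 of 8 members, against 25.9% of all genes, and fell for 1, against 19.5%. The fit had no block for day or slide and took both arrays of a day as independent, though they shared a slide. Its adjusted p-values can therefore be too small. Cd248 rose by 1.07 ± 0.33 log2 units per day (SE, adjusted p = 0.035 by limma) and Pdgfrb by 0.996 ± 0.28 (adjusted p = 0.029 by limma). Thy1 rose by 0.87 ± 0.25 (adjusted p = 0.029), Ly6a by 0.64 ± 0.15 (adjusted p = 0.017) and Osr1 by 0.29 ± 0.10 (adjusted p = 0.0495), all by limma. Tcf4 fell by 0.31 log2 units per day, with an SE of 0.072 (adjusted p = 0.017 by limma), and its other probe fell by 0.29 (adjusted p = 0.023 by limma). Pdgfra had a slope of 0.69 ± 0.25 that did not pass (adjusted p = 0.055 by limma), nor did Pi16 with -0.16 ± 0.12 (adjusted p = 0.31 by limma).

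For the 5 that rose, day 2 was the lowest day in both genotypes. Without day 2, 0 members and 0 genes passed, and the slopes were 0.19 for Cd248, 0.24 for Pdgfrb, 0.47 for Thy1, 0.35 for Ly6a, 0.03 for Osr1 and 0.0026 for Tcf4. The slope of Pdgfra without day 2 turned to -0.33, and that of Pi16 was -0.046. Without day 5 the slopes were 0.89 for Cd248, 0.86 for Pdgfrb, 0.70 for Thy1, 0.54 for Ly6a, 0.23 for Osr1 and -0.29 for Tcf4, and 0 members passed, as only 391 of all genes did against 8920 with every day. Without day 4, 3 members rose beside 5651 genes, and Thy1 with a slope of 0.87 (adjusted p = 0.053 by limma) and Osr1 with 0.29 (adjusted p = 0.068 by limma) no longer passed.

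**Figure D4:**
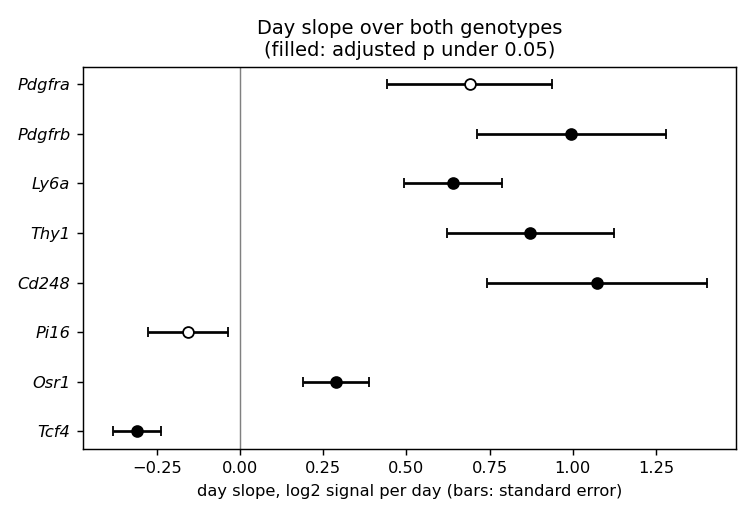
Day slope of the 8 tested markers in log2 signal per day over both genotypes, from limma, with standard errors as bars and filled points where the adjusted p is under 0.05. Cd248, Pdgfrb, Thy1, Ly6a and Osr1 lie above 0 and Tcf4 below it, and Pdgfra at 0.69 and Pi16 at -0.16 are open.

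Genes whose 4 daily differences lay nearest to those of a member were ranked by root mean square distance among 13956 tested genes with a symbol. Nearest to Cd248 were Col1a1, a chain of the main fibrous collagen (0.37 log2 units), and the member Pdgfrb (0.42). Nearest to Pdgfrb were Lrrc32 (0.24) and the matrix gene Fbln2 (0.29), and to Thy1 the collagen crosslinking gene Loxl3 (0.19) and the actin-binding gene Tagln (0.20). Ly6a lay nearest to Lrrcc1 (0.067) and to its family member Ly6c1 (0.16). No distance is given for Pdgfra, whose day 2 difference is a bound, or for Pi16, whose differences on days 4 and 6 are. Likeness over 4 differences is a description of these arrays.

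Other genes used as markers of the same cells were read next. Of 23 on the array, 19 were tested, 0 passed the genotype test, 11 rose over days, against 25.9% of all genes, and 1, Tcf7l2, fell. At least 2-fold higher in Dnmt3a-KO were 6 on day 2, 0 on day 4, 1 (Dcn) on day 5 and 0 on day 6, against 1.89, 1.46, 0.916 and 1.3% of all genes. At least 2-fold lower on the same days were 0, 7, 0 and 5, against 1.14, 3.07, 1.82 and 1.88%. Their median difference was 0.31, -0.71, 0.21 and -0.52 on days 2, 4, 5 and 6, beside 0.0073, -0.02, -0.05 and 0.02 for all genes.

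The lowest mean differences in this list were those of the collagen gene Col3a1 (-0.92 ± 0.65) and the fibrillin gene Fbn1 (-0.80 ± 0.77), and the highest those of Dcn, a small matrix proteoglycan (0.74 ± 0.99), and the transcription factor gene Twist2 (0.47 ± 1.24), none of which passed. Col1a1, singled out after its values were seen, read 58.4, 242, 2462 and 513% in Dnmt3a-KO cells and 12.3, 1361, 2131 and 1233% in WT cells, higher on day 2, lower on days 4 and 6 and close on day 5. Lum and Wt1 were well above background on no array.

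Genes of activated fibroblasts and myofibroblasts, the matrix-producing state of such cells, were read in the same way. All 12 were tested, 0 passed for genotype, 6 rose over days, against 25.9% of all genes, and 1 (Runx1) fell, against 19.5%. At least 2-fold higher and lower in Dnmt3a-KO were 1 (Lox) and 0 on day 2, 0 and 4 on day 4, 0 and 0 on day 5, and 0 and 6 on day 6, with median differences of 0.34, -0.61, 0.10 and -1.02. Of all genes, 1.89, 1.46, 0.916 and 1.3% were that much higher on these days and 1.14, 3.07, 1.82 and 1.88% lower. The matrix gene Postn had the lowest mean difference (-1.55 ± 2.07). On day 2 it was not well above background in either genotype. It read 0.299, 2.54, 85.8 and 6.16% in Dnmt3a-KO cells and 0.418, 55.3, 92.0 and 19.4% in WT cells. Tnc, also a matrix gene, followed with -0.72 ± 1.08, and Lox, a collagen crosslinking enzyme, and Runx1, a transcription factor, were highest with 0.39 ± 0.85 and 0.29 ± 0.15.

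**Figure D5:**
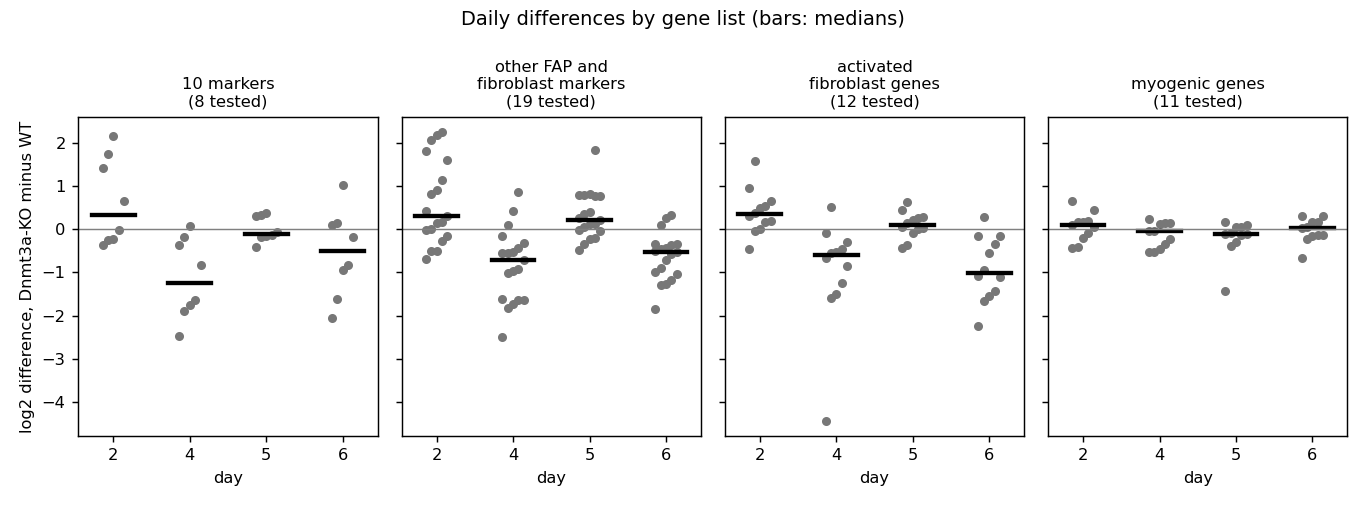
Log2 difference of Dnmt3a-KO minus WT on each day for the tested genes of 4 lists, 1 grey point per gene and a black bar at the median. Medians of the markers, the other markers and the activated fibroblast genes are above 0 on day 2 and below it on days 4 and 6, and those of myogenic genes stay between -0.10 and 0.09.

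The ligands and signalling partners of the PDGF receptors came next. Beside the counts over days of each list here, 25.9% of all genes rose and 19.5% fell. Of 13, 0 passed for genotype and 3 rose over days (Pdgfd, a ligand, Ptpn11, the gene of the phosphatase SHP2, and the adaptor gene Shc1), and 0 fell. The lowest mean differences were those of the coreceptor gene Nrp1 (-0.46 ± 0.74) and Stat3 (-0.30 ± 0.16), and the highest that of Pik3r1 (0.36 ± 0.21), a regulatory subunit of phosphoinositide kinase. Around Ly6a, 8 family genes are on the array and 3 were tested, of which Ly6c1 and Ly6g rose over days and none passed for genotype. Ly6c1 read 63.1, 107, 385 and 322% in Dnmt3a-KO cells and 81.9, 166, 314 and 169% in WT cells, below WT on days 2 and 4 and above it on days 5 and 6 as Ly6a was. Its second, dimmer probe read 4.30, 6.38, 16.8 and 10.9% in Dnmt3a-KO cells and 7.92, 13.1, 17.9 and 8.68% in WT cells, above WT on day 6 only. These genes are close in sequence, and how far each probe reads the other's transcript was not tested. Of 5 genes with related names or partners of Tcf4 (Tcf3, Tcf12, Tcf7, Tcf7l1 and Lef1), 5 fell over days and none passed for genotype.

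Markers of other cells that such cultures can hold were read beside the members. For all the lists of other cells below, the counts over days stand beside 25.9% of all genes rising and 19.5% falling. Of 12 myogenic genes, 11 were tested, 2 rose and 6 fell over days, and their summed signal was 29870 to 41860% in Dnmt3a-KO cells and 31100 to 40010% in WT cells. Their lowest mean difference was that of the satellite cell gene Pax7 (-0.74 ± 0.47, adjusted p = 0.28 by limma), and their medians by day were 0.09, -0.04, -0.10 and 0.02.

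Of 8 pericyte and smooth muscle genes, 6 were tested, 2 rose and 3 fell over days, with sums of 1030 to 1251% in Dnmt3a-KO cells and 1109 to 1232% in WT cells and median differences of 0.14, -0.40, -0.32 and -0.19 on days 2, 4, 5 and 6. Among them the contractile gene Cnn1 was at least 3.02-fold higher in Dnmt3a-KO on day 2, where it was not well above background in WT, with differences of -3.78, -0.004 and -1.40 log2 units on days 4, 5 and 6, and its part in the members' result was not tested. The pericyte gene Cspg4 was 1.54 log2 units higher in Dnmt3a-KO on day 2. Rgs5, well above background on 5 of 8 arrays, differed by -0.33 on day 2 and 1.17 on day 4. On day 6 Rgs5 was at least 3.86-fold higher in Dnmt3a-KO, and on day 5 it read 0.751% against 1.735% in WT. Notch3 was lower on each day, by -0.068, -0.54, -0.997 and -1.04 on days 2, 4, 5 and 6. Mcam stayed between -0.17 and 0.17, and Abcc9 differed by 0.21, -0.29, -0.47 and -0.24 on these days. Kcnj8 and Myh11 were each well above background on 1 array.

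Of 6 Schwann cell genes 6 were tested, 2 rose and 1 fell, with sums of 39.9 to 75.3% in Dnmt3a-KO cells and 41.5 to 126.9% in WT cells. Their median differences were 0.26, -1.30, 0.13 and -0.05 on days 2, 4, 5 and 6. On day 4 the 3 genes Sox10 (-1.78), S100b (-2.26) and Ngfr (-1.89) were at least 2-fold lower in Dnmt3a-KO, against 3.07% of all genes. Their part in the members' low values of that day was not tested.

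Of 8 endothelial genes 5 were tested, 1 rose and 1 fell, with sums of 333.8 to 415.0% in Dnmt3a-KO cells and 302.5 to 430.3% in WT cells, of which Kdr made up 67.5 to 91.8%. Tek and Tie1 were on no array well above background, whereas Pecam1 and Vwf were on 8 of 8, Emcn on 5 and Cdh5 on 3. On day 4 Cdh5 read 3.098% in Dnmt3a-KO cells and 14.82% in WT cells, a difference of -2.26. The part of Cdh5 in the members' low values of that day was not tested. The medians by day were 0.09, -0.47, -0.25 and 0.12. On days 2, 4, 5 and 6 Pecam1 differed by -0.10, 0.65, -0.25 and 0.45. Vwf differed by 0.56, -0.47, 0.16 and 0.34. Flt1, a receptor gene of vascular growth factor, read 1.56, 0.977, 5.06 and 0.893% in Dnmt3a-KO cells and 1.28, 4.94, 11.02 and 6.65% in WT cells. In Dnmt3a-KO it was not well above background on days 4 and 6, where it was lower by at least 5.05-fold and at least 5.91-fold, and its part in the members' result was not tested.

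Of 9 leukocyte genes 6 were tested, 3 rose and 1 fell, with medians by day of 0.02, -0.19, -0.05 and -0.18. Their sums of 914 to 2140% in Dnmt3a-KO cells and 1056 to 2097% in WT cells were 84.8 to 97.1% Itgam, and Cd68 and Lyz2 were well above background on no array. Csf1r, Adgre1, Cd14 and Cd3e were well above background on 8 of 8 arrays and Ptprc on 7. The 3 that rose were Csf1r, Adgre1 and Ptprc. Of 8 adipocyte genes 5 were tested, 1 rose and 1 fell, with sums of 82.1 to 107% in Dnmt3a-KO cells and 81.0 to 108% in WT cells and medians by day of 0.08, -0.50, 0.09 and -0.45. Lep and Cfd were well above background on no array, Adipoq on 3, Fabp4 and Plin1 on 5 each, and Pparg, Cebpa and Lpl on 8 of 8. Adipoq was at least 2.14-fold higher in Dnmt3a-KO on day 4, at least 1.87-fold lower on day 5 and at least 1.6-fold higher on day 6. Fabp4 was at least 1.95-fold higher on day 5 and at least 2.19-fold lower on day 6. Of 5 tendon genes 3 were tested and 1 rose, with medians by day of -0.05, -0.34, 0.78 and -0.51. Their sums of 3272 to 7606% in Dnmt3a-KO cells and 3769 to 6328% in WT cells were almost wholly the probe of Scx, and Tnmd was well above background on no array. The day 5 median of the tendon genes was that of Fmod, not well above background in WT and so a bound, at least 1.715-fold higher in Dnmt3a-KO. Mkx on day 5 was also a bound, at least 2.62-fold higher, and Scx differed by -0.22. No gene on these lists of other cells passed the genotype test.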

How the data were processed

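RNA of cultured satellite cells was measured on 8 one-colour Agilent arrays of 1 design, with groups taken from the labels. The intensity of each spot came, per the file headers, from Agilent Feature Extraction 11.0.1.1 for day 2 and 9.5.3.1 for later days, where the submitters' processing notes give 9.5. In the deposited value table each spot has a score, which equals 100 times the processed signal over the array's 75th percentile of all spots, negatives at 0 and rounded. Its column medians were 6 to 7.

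The processed intensity was divided by each array's 75th percentile over 43020 non-control spots, floored at 0.00763, and log2 was taken. Flagged spots were left out and spots of a probe averaged. Of 39429 probes, 273 had no usable spot and 25905 matched a RefSeq accession. The brightest probe per gene was kept. Probe positions are those of the file headers' mm9 design. Their place in exons was not determined here. A gene entered the test if well above background on 4 or more arrays. Tests used limma 3.58.1 (R 4.3.3), at 0.05 after Benjamini-Hochberg adjustment over 19655 genes. The genotype effect has day as a block and 1 pair of arrays per day, the slope has genotype as a covariate and no block for day or slide. The steps were tested on simulated data. For a bound, the dim array counts at its own signal or, if higher, at the dimmest signal on it that passed as well above background. Alternatives were quantile scaling, normexp or plain background subtraction, other filters on dim probes, each probe on its own, the deposited score, eBayes with trend, array weights, day as a random block, slide as a block, 1.5-fold, and leaving out each day. The number of arrays limits the precision.

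The members and all lists were chosen with earlier results of these data known. All 10 members are named, of other lists up to 2 genes with the highest and lowest mean differences, and for members reaching 1 log2 unit on any day the 2 genes nearest in their daily differences. Other names were chosen after their values were seen.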

Additional observations from a re-analysis of the deposited data

Results flagged for a closer look

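Pdgfrb and Cd248 differed between genotypes in opposite directions on different days. Pdgfrb was 2.16 log2 units higher in Dnmt3a-KO on day 2 and 1.88 lower on day 4 (a difference of -1.88). Cd248 was 1.73 higher on day 2, and its difference on day 4 was -2.46 log2 units. Each value rests on 1 array per genotype, and the reversal between days was tested only as a difference in slope, which did not pass. The day 2 arrays had their own slide and scanner. Y-linked transcripts were well above background only on the day 2 arrays, and Xist only on the later ones. The part of these differences in the reversal was not tested. No group held enough arrays for a check of outlying samples.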

How the results depend on the processing

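The count of members passing for genotype, and for a slope that differs between genotypes, was 0 under every alternative run. Over all genes the genotype count was 2, and 0 to 128 under the alternatives (128 with day as a random block). Of 102 recomputed member slopes 71 kept direction and side of the threshold, 24 lost the threshold, 4 passed it and 3 turned. No genotype difference of a member could lose the threshold, since none had passed it, and 7 of 118 recomputed ones turned. The count of members rising over days was 0 with normexp on the median signal, beside 0 of 19655 genes, and 1 (Ly6a) of 10 with no filter on dim probes, beside 4120 of 31732 genes, and the count falling was 0 with normexp and 2 with every probe on its own, both of Tcf4. Leaving out 1 day in turn gave 0 to 6 rising and 0 to 1 falling. At 1.5-fold, 4 members were higher in Dnmt3a-KO on day 2, beside 1032 of 19655 genes, and 0 were lower, beside 831. On day 4, 0 were higher, beside 978, and 5 lower, beside 1540. Day 5 had 0 either way, beside 579 genes higher and 1154 lower. On day 6, 1 was higher, beside 896, and 4 were lower, beside 1131.

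The normexp fit put the background mean at -139.4, -1563, -147.5 and -1206 intensity units on 4 of the arrays (Dnmt3a-KO day 2 and WT days 2, 4 and 6) and between 6.715 and 14.99 on the others, which adds a constant to the 4 and flattens their ratios. It moved the median genotype difference of all genes to -0.37. Under it the genotype difference turned for Pdgfra (-1.32), Ly6a (-0.021) and Tcf4 (0.28), and the difference in slope for Pdgfra (0.086), Pdgfrb (0.26), Thy1 (0.085) and Cd248 (0.22). An alternative chosen after seeing this, plain subtraction of the background plus 50, gave 7 members rising and 1 falling, with 8313 genes rising and 3353 falling against 5097 rising and 3823 falling with the processed signal, and turned the slope of Pi16 (0.12), for which the cause was not tested.

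Without 1 day in turn, the genotype difference ran from -0.83 to 0.52 for Pdgfrb, -0.082 to 0.38 for Ly6a and -1.12 to 0.28 for Cd248, and the slope from -0.33 to 1.27 for Pdgfra and -0.45 to 0.0026 for Tcf4. The difference in slope ran from -0.41 to 0.015 for Pdgfra, -0.81 to 0.47 for Pdgfrb, -0.57 to 0.073 for Thy1, -0.82 to 0.82 for Cd248 and -0.025 to 0.49 for Osr1. The slope of Pdgfra passed with eBayes trend, with array weights, with plain subtraction and without day 6, and that of Osr1 did not with the deposited score (adjusted p = 0.062 by limma). Signals near background limit Pi16, Pdgfra on day 2, Dpp4 and Dpt.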
